A study of Mus musculus with 24 samples.

Results

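The enzymes and membrane proteins by which liver peroxisomes shorten fatty acids were followed in the livers of mice on 3 diets. The 9 genes described are Abcd3, Ehhadh, Hsd17b4, Acaa1a, Acaa1b, Decr2, Eci2, Crot and Pex11a. Every probe set whose platform annotation lists 1 gene symbol, and lists one of these, was taken, which gave 14 probe sets of the 45037 on the array that are not array controls. Of the 9 genes, 5 had 2 probe sets (Hsd17b4, Acaa1a, Crot, Pex11a and Abcd3) and 4 had 1. A probe set is a group of short oligonucleotides near the 3' end of a transcript whose brightness is summarised to 1 value per array.

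Whole-liver RNA came from 18 male C57BL6J mice, with 1 Affymetrix array per mouse. The HF+P group (n = 6) was fed a high-fat diet (45% fat) with 5% propagule powder of yam mixed in. The HF group (n = 6) was fed this high-fat diet without the powder, and the LF group (n = 6) a low-fat diet whose fat share the labels do not state. All 3 groups were fed for 4 weeks and had fasted for 16 h when the liver was taken, so fasting is shared by every comparison. The labels do not say which mice shared a cage or litter. The p-values rest on the spread of the deposited values between these mice, which also depends on the arrays processed beside them. The authors processed the HF arrays beside the LF arrays and, in a separate run, beside the HF+P arrays, so the 2 comparisons use 2 value sets of 12 arrays each and share the same 6 HF mice.

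Peroxisomal beta-oxidation handles very long-chain, branched-chain and dicarboxylic fatty acids, which mitochondria take up or oxidise poorly. Abcd3 carries substrates into the organelle. Ehhadh and Hsd17b4 (each a hydratase and dehydrogenase in 1 protein) carry out the middle steps, and the thiolases Acaa1a and Acaa1b release acetyl-CoA. Decr2 and Eci2 reshape double bonds of unsaturated fatty acids, Crot joins the shortened chains to carnitine for export to mitochondria, and Pex11a is a membrane protein of peroxisome elongation and division. In rodent liver several of these genes are known targets of PPAR-alpha, a nuclear receptor for fatty acids that is active in fasting and binds, with RXR, to repeats of the half-site AGGTCA or variants such as GGGTCA.

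The promoter of Ehhadh is shown because it was the member that changed with diet. Pex11a is shown because, of the other members searched, only its promoter window held the half-site GGGTCA. Each window runs from 250 bases before to 50 bases after the annotated transcription start (RefSeq, GRCm38.p6), 5′ to 3′ on the strand of the gene. Capitals mark GGGTCA, which in both lies on the strand opposite to the gene and so reads TGACCC, beginning at position -165 in Ehhadh and -127 in Pex11a.
Ehhadh promoter, chr16:21787785-21788084, minus strand: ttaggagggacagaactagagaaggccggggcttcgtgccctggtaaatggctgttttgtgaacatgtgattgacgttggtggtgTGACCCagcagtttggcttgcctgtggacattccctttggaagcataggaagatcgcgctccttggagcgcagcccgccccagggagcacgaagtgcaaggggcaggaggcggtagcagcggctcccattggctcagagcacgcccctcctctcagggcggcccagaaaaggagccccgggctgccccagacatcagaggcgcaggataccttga
Pex11a promoter, chr7:79743082-79743381, minus strand: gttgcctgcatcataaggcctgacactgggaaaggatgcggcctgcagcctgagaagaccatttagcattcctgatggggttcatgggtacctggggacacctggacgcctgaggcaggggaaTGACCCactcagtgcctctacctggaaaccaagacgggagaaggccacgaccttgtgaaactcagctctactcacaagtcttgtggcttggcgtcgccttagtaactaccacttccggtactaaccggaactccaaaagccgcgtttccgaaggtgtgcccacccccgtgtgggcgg
Over both strands, GGGTCA stood in 13.7% of 32851 mouse promoter windows of this length and in 2 of 9 windows of the members. These windows belong to 8 of the genes, Abcd3 with 2 windows. Hsd17b4 was left out of the search of member windows and is named only. AGGTCA stood in 16.3% of all windows and in 0 of the 9, and the spaced repeat AGGTCANAGGTCA, where N is any base, in 0.0396% and in 0 of the 9. The thiolase pair Acaa1a and Acaa1b, both on chromosome 9, held none of these motifs. A match is a run of letters in the window and is not a measured binding site.

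Most member probe sets were among the brightest on the array. Of the 14 probe sets, 12 lay above 90% of all probe sets in mean level on the HF and LF arrays. The dim exceptions were the second probe sets of Crot (1440474_at, above 50.8%) and Abcd3 (1443046_at, above 23.4%). Acaa1b was the brightest member, with a mean of 14.1912 on the deposited log2 scale in HF and in LF livers. Levels of different probe sets depend on their oligonucleotides and were not ranked as amounts of RNA.

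Arrays differ by very small amounts in the deposited values: the SD over the 12 HF and LF arrays had a median of 4.17 millionths of a log2 unit over all probe sets. Differences of deposited values were for this reason not turned into fold changes. Values of single mice are given as deviations from the mean of the LF or, in the second value set, the HF mice, in millionths of a deposited log2 unit. The size of a difference is the standardized difference, HF minus LF (or HF+P minus HF) in pooled within-group SDs with the correction of Hedges, with its 95% interval. All adjusted p-values come from limma, two-sided, 6 mice per group, with Benjamini-Hochberg adjustment over the 45037 probe sets, and "rose" and "fell" are used at an adjusted p under 0.05. As RNA came from whole liver, fewer cells of a type and less RNA per cell cannot be told apart.

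The comparison of HF with LF addressed high-fat feeding. Ehhadh fell in HF livers, and none of the other 13 member probe sets passed the test. That is 1 of 14 member probe sets, beside 0.671% of all probe sets (302, of which 121 or 0.269% were higher and 181 or 0.402% lower in HF livers). Members lay on both sides of 0, with 7 higher and 7 lower in HF livers and a median standardized difference of 0.072, against 0.015 over all probe sets. At an unadjusted p under 0.05 there were 4 (2 higher and 2 lower), beside 12.9% of all probe sets.

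These directions depend on how the columns are scaled. With each column centred on its median, 11 member probe sets were called, all lower in HF livers, together with 42369 of all probe sets (322 higher and 42047 lower), and after quantile normalization 6766 of all probe sets were called (174 higher and 6592 lower). The column medians of HF lay 64.5 millionths above those of LF, while neighbouring probe sets near the middle of a column lie a median of 35.7 millionths apart. Centring on the median deviation over all probe sets, which differed by 0.0249 millionths between HF and LF, left 7 member probe sets higher and 7 lower and Ehhadh the only call. The values below are those of the deposited scale, and signs that turn under another scaling are given with them or in the closing section.

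Ehhadh (probe set 1448382_at), the peroxisomal bifunctional enzyme, a known PPAR-alpha target that helps to shorten dicarboxylic acids, had deviations of -2400, -1730 and -899 (lowest, median and highest) in HF livers, against -734, 202 and 408 in LF livers. All 6 HF mice lay below all 6 LF mice, so the groups did not overlap. This was the only member without overlap, a pattern that 1.57% of all probe sets showed in either direction and 0.921% in this one. The means were 12.5312 in HF livers and 12.5329 in LF livers, with SDs of 549 and 475 millionths (n = 6 each). The standardized difference was -3.08 (95% interval -4.74 to -1.36, limma adjusted p = 0.0272), which ranked 169th by p among all probe sets. Ehhadh also had the widest spread of deposited values among the members, with an SD over the 12 arrays of 1020 millionths. That spread includes the difference between the groups. The SD was 4.79 times that of the next member probe set, against 1.23 times on the HF+P and HF arrays. Within 1 gene, the Abcd3 probe sets had SDs of 4.9 and 90.5 millionths on the HF and LF arrays. These SDs therefore do not rank the genes by variability.

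The direction of Ehhadh held without each mouse in turn (standardized difference -3.79 to -2.85), while its place past the threshold did not. It was lost without HF mouse 2 (adjusted p = 0.0659), 4 (0.0647) or 8 (0.0529), and without LF mouse 1 (0.0648), 3 (0.0725), 5 (0.0771) or 8 (0.0636). It remained without HF mouse 1, 3 or 5 and LF mouse 2 or 4, at 0.0194 to 0.0479. Quantile normalization also ended the call, with a standardized difference of -1.2 and an adjusted p of 0.144. It made the dim Crot probe set 1440474_at the only member called (-4.5, adjusted p = 0.000785). The fit with mouse number as a replicate block, given in the closing section, ended the call of Ehhadh as well.

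**Figure D1:**
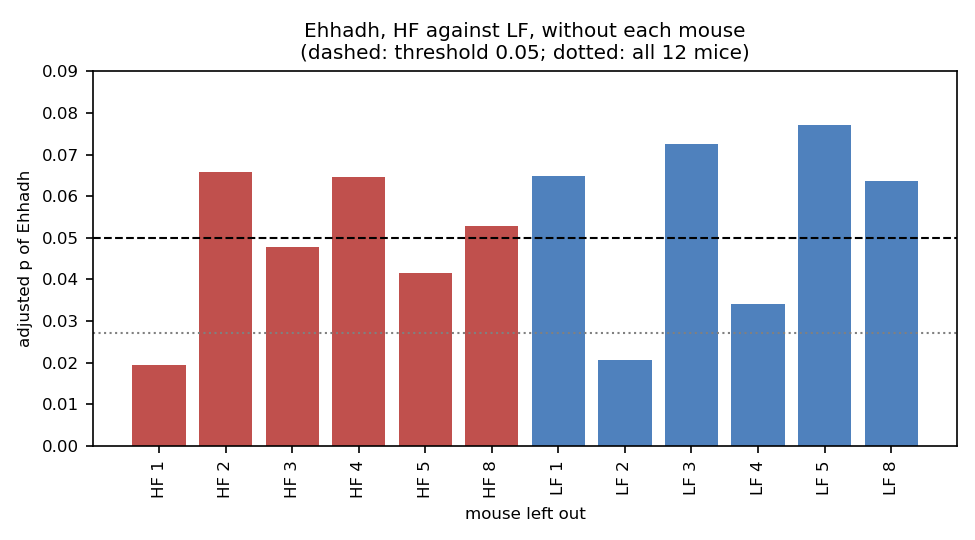
Adjusted p of Ehhadh in the comparison of HF with LF (limma, all probe sets) after leaving out each of the 12 mice, HF mice in red and LF mice in blue; the dashed line is the threshold of 0.05 and the dotted line the value with all mice, 0.0272. The bars of HF mice 2, 4 and 8 and of LF mice 1, 3, 5 and 8 stand above the threshold, with the highest at 0.0771.

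Hsd17b4, the second bifunctional enzyme, which acts on very long-chain and branched-chain substrates, had lower values in HF livers with both probe sets, short of the threshold. Deviations of 1455777_x_at were -6.79, -3.29 and -2.34 in HF livers and -4.05, -0.0167 and 3.73 in LF livers (lowest, median, highest). All 6 HF mice lay below the LF median, and the groups overlapped. Its standardized difference was -1.52 (-2.73 to -0.258, adjusted p = 0.243), and that of 1417369_at was -1.11 (-2.23 to 0.0649, adjusted p = 0.433). The SD of deposited values over the 12 arrays was 2.92 and 1.78 millionths for these probe sets, beside 1020 for Ehhadh.

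The thiolases, which perform the last step, had values of opposite sign, none past the threshold, and the difference between them was not tested. With columns centred on their medians all 3 probe sets were lower in HF livers. Acaa1b had deviations of -5.67, -2.20 and 0.673 in HF livers and -3.15, -0.497 and 4.74 in LF livers, with 2 HF mice below all LF mice. Its standardized difference was -0.903 (-2.00 to 0.232, adjusted p = 0.523). Acaa1a probe set 1456737_x_at lay the other way, with -2.12, 9.94 and 15.4 in HF livers and -6.04, 2.06 and 5.5 in LF livers, and 4 HF mice above all LF mice. Its standardized difference was 1.26 (0.0587 to 2.42, adjusted p = 0.331), which turned to -2.3 when columns were centred on their medians and to -0.33 after quantile normalization. The other Acaa1a probe set, 1456011_x_at, gave 0.287 (-0.772 to 1.33, adjusted p = 0.879), and -1.4 (adjusted p = 0.0189) with columns centred on their medians. Acaa1a and Acaa1b are close copies, and probe sets of the "_x_at" kind may bind more than 1 transcript, so the split between them is uncertain.

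Abcd3, the ABC transporter that imports branched-chain and dicarboxylic acyl-CoA among others, had the largest value on the higher side among the members. Probe set 1416679_at had deviations of 0.387, 7.47 and 12 in HF livers and -2.78, -0.693 and 5.72 in LF livers. All 6 HF mice lay above the LF median and 4 above every LF mouse. The standardized difference was 1.78 (0.455 to 3.05), with an unadjusted p of 0.00597 and an adjusted p of 0.162, so it did not pass, and it turned to -2.5 with columns centred on their medians. The dim probe set 1443046_at gave 0.85 (-0.276 to 1.94, adjusted p = 0.541).

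**Figure D2:**
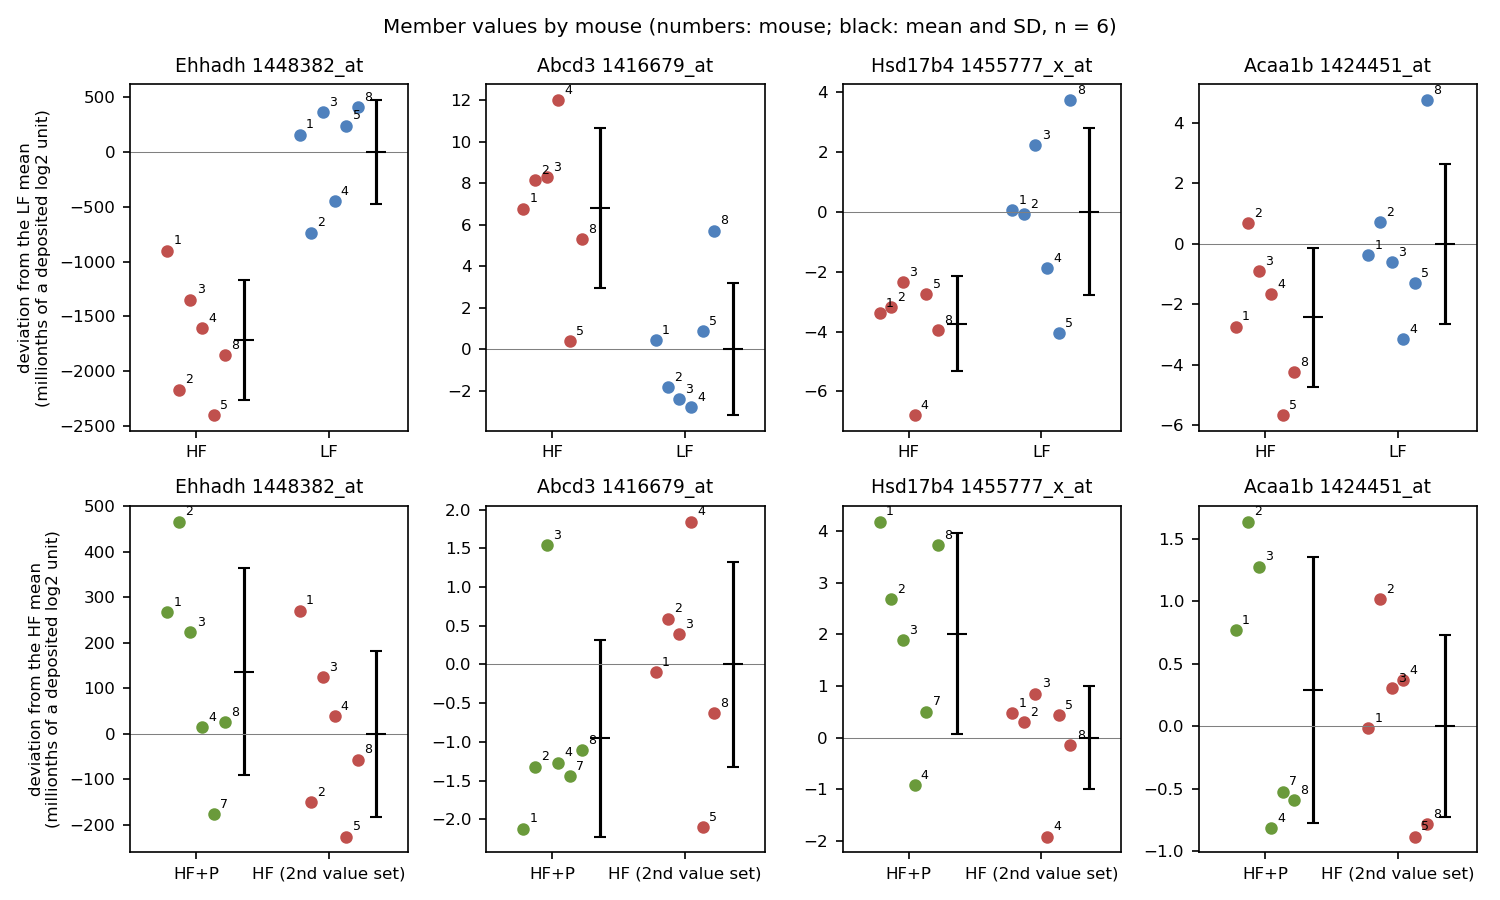
Deviation of each mouse from the mean of the LF mice (top row, HF left and LF right) or of the HF mice in the second value set (bottom row, HF+P left and HF right), in millionths of a deposited log2 unit, for 4 probe sets; numbers name the mice, and black marks give mean and SD (n = 6). Each panel has its own scale. In Ehhadh all 6 HF mice lie below all 6 LF mice, and in the other panels the groups overlap.

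Among the accessory enzymes the intervals all included 0. Decr2, the peroxisomal 2,4-dienoyl-CoA reductase, had deviations of -2.71, 6.25 and 14.6 in HF livers and -4.83, -1.63 and 7.99 in LF livers, with 3 HF mice above all LF mice. Its standardized difference was 0.945 (-0.197 to 2.05, adjusted p = 0.488), which turned to -2.3 with columns centred on their medians. Eci2, the enoyl-CoA isomerase, gave -0.107 (-1.15 to 0.941, adjusted p = 0.965). Crot, carnitine octanoyltransferase, gave -0.199 (-1.24 to 0.854, adjusted p = 0.921) with the bright probe set 1450966_at and -0.266 (-1.31 to 0.791, adjusted p = 0.891) with the dim 1440474_at. The intervals of Eci2 and Crot allow changes in both directions.

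Pex11a, which is induced by fasting and by peroxisome proliferators in mouse liver, had the second widest spread of deposited values among the 9 genes. Probe set 1449442_at had deviations of -35.2, 126 and 508 in HF livers and -384, 70.9 and 162 in LF livers, so that 3 HF mice lay above all LF mice while the rest overlapped. The standardized difference was 0.714 (-0.392 to 1.79, adjusted p = 0.623), and 0.251 (-0.805 to 1.30, adjusted p = 0.897) with 1419365_at, which turned to -0.039 with columns centred on their medians and to -0.53 after quantile normalization. The Pex11a promoter shown above shares the half-site letters with that of Ehhadh. On the deposited scale the differences of the 2 genes had opposite signs, and that of Pex11a did not pass the test. Whether the letters bear on either difference was not tested.

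**Figure D3:**
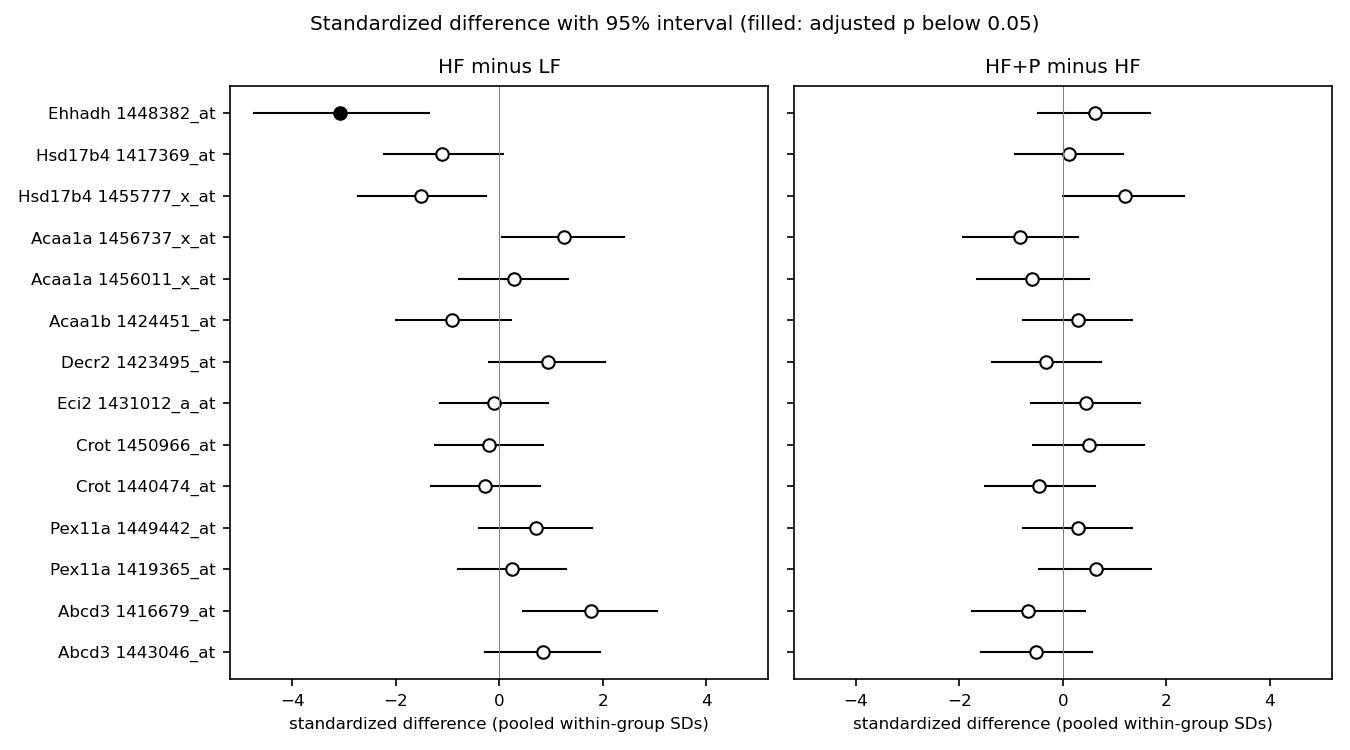
Standardized difference (pooled within-group SDs) of each member probe set with its 95% interval, HF minus LF on the left and HF+P minus HF on the right; a filled point marks an adjusted p under 0.05. The single filled point is Ehhadh at -3.08 in HF minus LF, and the values of HF+P minus HF run from -0.834 to 1.20.

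HF+P and HF livers were compared to follow the yam propagules added to the high-fat diet. None of the 14 member probe sets passed the test in limma, at an unadjusted p under 0.05 there were 0, and without moderation of the variances there were 0. Over all probe sets 1 was called (0.00222%), and 6.94% had an unadjusted p under 0.05. Of the members 8 had higher and 6 lower values in HF+P livers, the median standardized difference was 0.2 against -0.0096 over all probe sets, and the lowest adjusted p was 0.723. With columns centred on their medians the split was 11 higher and 3 lower, with 0 called. In 0 of the 14 were the groups without overlap, beside 0.355% of all probe sets.

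Ehhadh had deviations of -176, 124 and 466 in HF+P livers and -226, -9.08 and 270 in HF livers. Of the HF+P mice 5 lay above the HF median and 1 above every HF mouse, and the groups overlapped over most of their range. The standardized difference was 0.613 (-0.479 to 1.68, adjusted p = 0.853), so the test did not show a difference, and the interval allows changes in both directions. The means were 12.5629 in HF+P livers and 12.5627 in HF livers. As the 2 comparisons share the HF mice, their values for Ehhadh, -3.08 for HF minus LF and 0.613 for HF+P minus HF, are not independent of each other.

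Hsd17b4 probe set 1455777_x_at came nearest to the threshold, with deviations of -0.920, 2.28 and 4.18 in HF+P livers and -1.92, 0.370 and 0.850 in HF livers. There 4 HF+P mice lay above every HF mouse. Its standardized difference was 1.20 (0.00917 to 2.34, unadjusted p = 0.0534, adjusted p = 0.723). The other Hsd17b4 probe set, 1417369_at, gave 0.116 (-0.932 to 1.16, adjusted p = 0.987).

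For the remaining members all intervals included 0. Acaa1b gave 0.293 (-0.766 to 1.34). Acaa1a gave -0.834 (-1.92 to 0.290) with 1456737_x_at, where all 6 HF+P mice lay below the HF median, and -0.59 (-1.65 to 0.499) with 1456011_x_at. The first of these turned to 0.42 with columns centred on their medians and to 1.8 after quantile normalization. Abcd3 gave -0.678 (-1.75 to 0.422) and -0.519 (-1.58 to 0.562), and Decr2 -0.324 (-1.37 to 0.738). Abcd3 1416679_at and Decr2 turned to 0.46 and 0.37 with columns centred on their medians. Eci2 gave 0.45 (-0.623 to 1.5), Crot 0.508 (-0.571 to 1.56) and -0.458 (-1.51 to 0.616), the second turning to 0.17 after quantile normalization, and Pex11a 0.284 (-0.774 to 1.33) and 0.637 (-0.458 to 1.70), which turned to -0.44 and -0.29 under the same scaling.

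The related gene lists place Ehhadh among its neighbours in the pathway, each gene by its brightest probe set. In HF livers 0 genes rose and 0 fell among 22 measured genes of other peroxisomal oxidation and import steps, 17 peroxisome biogenesis genes and 14 other peroxisomal enzymes, beside 0.379% of all genes that rose and 0.605% that fell. Their median standardized differences were 0.29, -0.088 and 0.24, against 0.012 over all 18193 genes. An unadjusted p under 0.05 was found in 5, 5 and 3 of them, beside 15.1% of all genes. Phyh, at 2.62 (1.05 to 4.13, adjusted p = 0.563), and Ephx2, at -1.2 (-2.35 to -0.0119, adjusted p = 0.437), had intervals without 0 but an unadjusted limma p above 0.05. Both were singled out after their values were seen.

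Among 17 mitochondrial counterparts of the members 0 rose and 0 fell in HF livers, with a median of -0.16, and 4 had an unadjusted p under 0.05 (2 higher and 2 lower), beside 15.1% of all genes. Those 4 were Echs1, the short-chain hydratase, at 1.88 (0.527 to 3.17, adjusted p = 0.207), Hadh, the dehydrogenase, at 1.33 (0.112 to 2.5, adjusted p = 0.303), Acadm, the medium-chain dehydrogenase, at -1.37 (-2.55 to -0.144, adjusted p = 0.383), and Etfdh, which passes the electrons on, at -2.53 (-4.01 to -0.989, adjusted p = 0.059). Acadl, at -2.09 (-3.44 to -0.678, adjusted p = 0.462), and Acadvl, at -1.32 (-2.48 to -0.103, adjusted p = 0.51), had intervals below 0 but an unadjusted limma p above 0.05. All these genes were singled out after their values were seen. The subunits of the trifunctional protein, which in mitochondria carries out the hydratase, dehydrogenase and thiolase steps, gave 0.0673 (-0.979 to 1.11, adjusted p = 0.978) for Hadha and -0.351 (-1.40 to 0.713, adjusted p = 0.852) for Hadhb. The mitochondrial thiolase Acaa2 gave 0.335 (-0.728 to 1.38), the reductase Decr1 0.0838 (-0.963 to 1.13), the isomerase Eci1 0.64 (-0.455 to 1.71) and the carnitine palmitoyltransferase Cpt2 -0.163 (-1.21 to 0.888). Differences between Ehhadh and these genes were not tested.

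Of 18 measured genes of PPAR-alpha and its other targets, 0 rose and 1 fell in HF livers, beside 0.379% of all genes that rose and 0.605% that fell, with a median of -0.52. The 1 that fell was Acot1, a cytosolic acyl-CoA thioesterase, at -3.42 (-5.21 to -1.59, adjusted p = 0.0166), and its close copies make the assignment uncertain. Cyp4a14, an omega-hydroxylase of fatty acids, gave -2.03 (-3.36 to -0.635, adjusted p = 0.11) and did not pass. Ppara itself gave 0.378 (-0.688 to 1.43, adjusted p = 0.83). In this list 5 of 18 genes had an unadjusted p under 0.05, beside 15.1% of all genes, and all 5 had lower values in HF livers; earlier results of these data were known when the list was drawn up, so this count is a description.

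In HF+P against HF livers 0 genes of these 5 lists rose and 0 fell, beside 0.0055% of all genes that rose and 0% that fell. The medians were -0.012 for other peroxisomal oxidation and import, -0.21 for biogenesis, -0.22 for other peroxisomal enzymes, -0.16 for mitochondrial counterparts and 0.31 for PPAR-alpha and its targets, against 0.022 over all genes. Unadjusted p-values under 0.05 were found in 1, 1, 0, 2 and 3 genes, beside 7.05% of all genes. The 3 of the PPAR-alpha list had higher values in HF+P livers, and those of the other lists lower values. As the lists were drawn up with earlier results known, these directions are a description. Cyp4a14 gave 1.68 (0.378 to 2.92, adjusted p = 0.56), Acot1 0.584 (-0.504 to 1.64, adjusted p = 0.859), Ppara -0.599 (-1.66 to 0.491, adjusted p = 0.854) and Decr1 -1.69 (-2.94 to -0.387, adjusted p = 0.573), all short of the threshold. The other gene of the mitochondrial list with an unadjusted p under 0.05 was Cpt1a, at -1.16 (-2.3 to 0.0201, adjusted p = 0.712). Values were -0.0127 for Hadha, -0.0671 for Hadhb, -0.608 for Acaa2, -1.02 for Eci1 and 0.725 for Cpt2, with intervals that included 0.

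**Figure D4:**
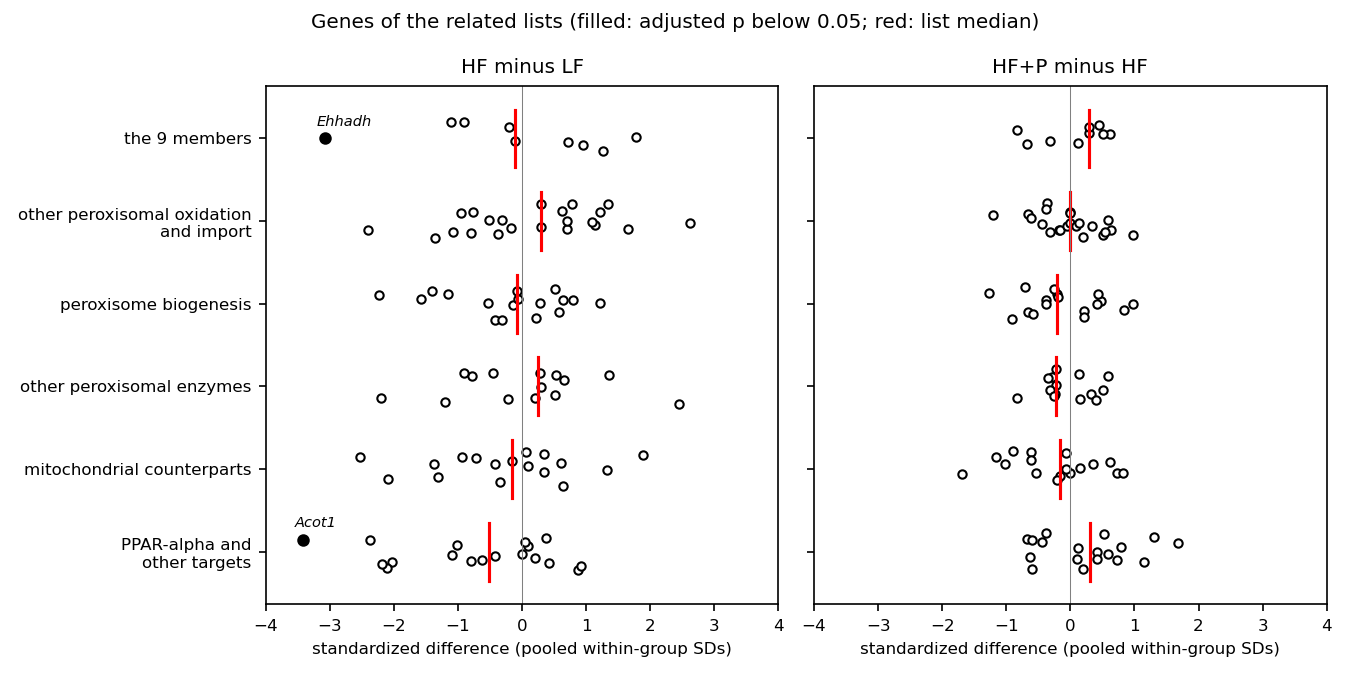
Standardized difference of every measured gene (1 probe set each) of the 9 members and of 5 related lists, HF minus LF on the left and HF+P minus HF on the right; filled points have an adjusted p under 0.05 and red bars are list medians. The filled points are Ehhadh at -3.08 and Acot1 at -3.42, both in HF minus LF.

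Some mice recurred at the extremes of their group over the members. LF mouse 8 was the highest LF mouse in 9 of the 14 probe sets and LF mouse 4 the lowest in 5. HF mouse 5 was the lowest HF mouse in 8 of 14, among them Ehhadh, Acaa1b and Abcd3 1416679_at, and in 7 of 14 in the second value set. In what these mice differed was not tested. The standardized difference of Ehhadh was -3.0 (limma adjusted p = 0.0415) without HF mouse 5 and -2.87 (adjusted p = 0.0636) without LF mouse 8.

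**Figure D5:**
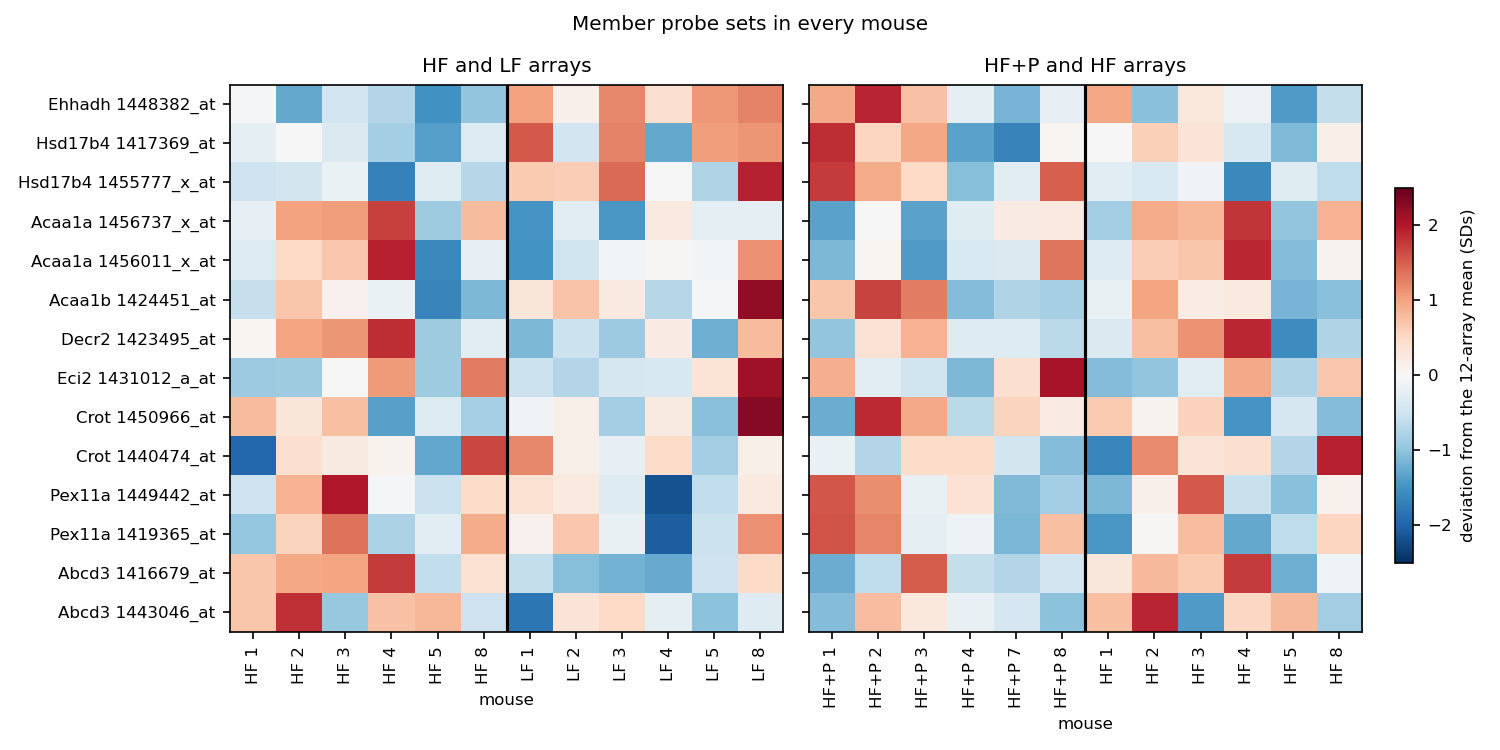
Each member probe set (rows) in each mouse (columns), as the deviation from the mean of the 12 arrays of its value set in SDs; HF left of LF in the left panel and HF+P left of HF in the right panel. The row of Ehhadh separates HF (blue) from LF (red), while LF mouse 8 is red in most rows and HF mouse 5 blue in most rows.

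Probe sets of the same gene agreed to different degrees. As a description over 12 mice, deviations from the group mean on the HF and LF arrays correlated with Pearson's r = 0.90 for the Pex11a pair (Spearman's rho = 0.89, r = 0.82 without the 2 mice farthest from the median) and 0.80 for the Acaa1a pair (rho = 0.90, r = 0.60). They correlated less for Hsd17b4 (r = 0.30, rho = 0.40, r = 0.17) and not in the same direction for Crot (r = -0.098, rho = 0.028, r = -0.11) and Abcd3 (r = -0.13, rho = -0.31, r = -0.12), the genes with 1 dim probe set. On the HF+P and HF arrays r was 0.80 for Pex11a, 0.87 for Acaa1a, 0.71 for Hsd17b4, -0.38 for Crot and 0.18 for Abcd3. Points of a pair share array and RNA. Between genes, Acaa1a 1456011_x_at and Decr2 had r = 0.89 (rho = 0.83, r = 0.78), and Acaa1b and Abcd3 1416679_at r = 0.78 (rho = 0.83, r = 0.71), on the HF and LF arrays. Ehhadh and Acaa1b had r = 0.29 (rho = 0.30, r = 0.19) on the HF and LF arrays and 0.65 (rho = 0.55, r = 0.46) on the HF+P and HF arrays. Ehhadh and Acaa1a 1456011_x_at had 0.31 (rho = 0.20, r = -0.045) and -0.0094 (rho = 0.035, r = -0.11). Ehhadh and Hsd17b4 1417369_at had 0.65 (rho = 0.58, r = 0.48) and 0.63 (rho = 0.61, r = 0.51). With Hsd17b4 1455777_x_at r was 0.16 and 0.36. Over all other member probe sets, r with Ehhadh ran from -0.34 (Abcd3 1443046_at) to 0.65 on the HF and LF arrays. On the HF+P and HF arrays it ran from -0.25 (Crot 1440474_at) to 0.65 (Acaa1b).

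Of 18192 genes compared, 3 are given whose within-group deviations were most like those of Ehhadh over the 12 HF and LF mice. They were 3200001D21Rik (r = 0.925, rho = 0.839), Rtn4r (r = 0.902, rho = 0.902) and D730005E14Rik (r = 0.888, rho = 0.93). Their own standardized differences between HF and LF livers were 1.08, 0.402 and 0.135, with adjusted p-values of 0.425, 0.818 and 0.954. Over the 12 HF+P and HF mice the 3 most alike were other genes, Kit (r = 0.907), Iba57 (r = 0.886) and 2700012I20Rik (r = 0.879). As the highest of 18192 values over 12 mice, these r values are high by selection, and a relation to Ehhadh was not tested.

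The same HF arrays could be compared between the 2 value sets. Over the 6 HF mice r between the sets was 0.965 to 0.9996 for the member probe sets, against a median of 0.952 over all probe sets, so mice kept their positions. The scale did not keep: the SD of Ehhadh over the HF mice was 549 millionths beside the LF arrays and 183 beside the HF+P arrays, a ratio of 3.01, and for Acaa1a 1456011_x_at the ratio was 0.48. Differences in millionths are therefore not comparable between the value sets.

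As a check of the liver label, Alb, the main hepatocyte protein, read 14.9 on the deposited scale and the fat cell gene Adipoq 6.03, above 7.54% of probe sets; these are readings of different probe sets and not amounts of RNA. Of 43 listed markers of hepatocytes and 8 other cell types, 35 were measured and 0 passed the test in either comparison (limma). In HF minus LF the median standardized difference was -0.66 for 7 hepatocyte markers, 0.41 for 6 macrophage, 0.74 for 4 lymphocyte, 0.14 for 4 endothelial, 0.72 for 4 stellate, -0.56 for 4 bile duct, -0.32 for 2 fat cell, 1.6 for 2 pancreatic acinar and 0.76 for 2 red blood cell markers. In HF+P minus HF all 6 macrophage and all 4 lymphocyte markers had lower values, with medians of -0.67 and -0.92. The 2 pancreatic acinar and 2 red blood cell markers were lower as well, with medians of -0.87 and -1. The other medians were 0.4 for hepatocyte, 0.0031 for endothelial, -0.096 for stellate, 0.2 for bile duct and 0.5 for fat cell markers. The part of cell makeup in the value of Ehhadh was not tested.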

How the data were processed

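Liver RNA of 18 mice (Trizol, 200 ng total RNA, biotin-labelled amplified RNA) was read on Affymetrix arrays, per the labels' protocols. The deposited log2 values of the authors lie between 5.36 and 15.0. R 2.7.2 was used, per the submitters' processing notes; for summarisation, normalization and log base the sources used here state nothing, and log2 was taken from the range. Of 45101 probe sets 64 array controls were left out, 932 carried several gene symbols and 9160 none.

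limma 3.58.1 under R 4.3.3 (lmFit, eBayes) was run per comparison on 6 against 6 mice without covariates, within its own 12 columns, two-sided, with Benjamini-Hochberg adjustment over 45037 probe sets and a threshold of 0.05. Standardized differences carry 95% intervals from the noncentral t distribution. They use the SD of each probe set alone, while limma moderates the variances, so an interval and a p-value can disagree. The fit was also run on simulated independent normal values without shifts between columns, so that check does not cover the dependence on scaling. Precision is limited by 6 arrays per group. Likeness to Ehhadh was Pearson's r of deviations from the group means. Promoters came from RefSeq.

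The members, lists and the rule for named genes were chosen with earlier results of these data known. All 9 members were named with every probe set, from each other list up to 3 genes past the threshold, Hadha, Hadhb, Acaa2, Decr1, Eci1, Cpt2, Ppara, Acot1 and Cyp4a14 whatever their result, and the 3 genes most like Ehhadh. Each gene of a list was read from its probe set with the highest mean. Each comparison was repeated under 12 other settings and without each mouse. Mouse numbers recur between groups and were not treated as pairs.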

Additional observations from a re-analysis of the deposited data

Results flagged for a closer look

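In 4 of 56 sets of 6 mice (each member probe set in each group) the highest or lowest mouse stood apart, with a gap to its nearest neighbour above Dixon's 95% critical share of the group's whole range; chance gives this in about 1 of 20. For Hsd17b4 1455777_x_at, HF mouse 4 was far below the other HF mice, with a gap of 0.636 of the range beside the LF arrays and 0.639 beside the HF+P arrays, which is the same array in both value sets. For Abcd3 1416679_at, HF+P mouse 3 stood above the other HF+P mice (0.724). For Eci2 1431012_a_at, LF mouse 8 stood above the other LF mice (0.627). None of these probe sets passed the test in either comparison, and Eci2 turned to 0.33 for HF minus LF without LF mouse 8.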

How the results depend on the processing

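The sizes rest on 6 arrays per group and on values whose spread is mostly millionths of a log2 unit, so that a shift between columns can outweigh them. For HF against LF, Ehhadh was called alone under 9 of 12 settings, namely 1 probe set per gene, the mean of probe sets, probe sets with 1 symbol, without probe sets below the median level, trend and robust, array weights, no moderation, the looser threshold of 0.1 and centring on the median deviation, which was chosen after seeing the data (adjusted p = 0.0165 to 0.0447). With columns centred on their medians 11 members were called. In the fit with mouse number as a replicate block the count was 0 (Ehhadh -3.2, adjusted p = 0.0614); under quantile normalization Ehhadh gave -1.2. Calls over all probe sets numbered 302, and 42369 with median centring, 6766 after quantile normalization, 568 without probe sets below the median level and 861 at an adjusted p under 0.1. Fewer probe sets were tested without those below the median level, and the looser threshold admits more by definition. For median centring and quantile normalization the cause was not tested.

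Signs turned for HF minus LF with median centring in Acaa1a (-2.3 for 1456737_x_at and -1.4 for 1456011_x_at), Decr2 (-2.3), Pex11a 1419365_at (-0.039) and Abcd3 1416679_at (-2.5), and after quantile normalization in Acaa1a 1456737_x_at (-0.33) and Pex11a 1419365_at (-0.53). Quantile normalization left 8 members of HF against LF with equal means, and a direction in 6. For HF+P minus HF, signs turned with median centring in Acaa1a 1456737_x_at (0.42), Decr2 (0.37) and Abcd3 1416679_at (0.46), and after quantile normalization in Acaa1a 1456737_x_at (1.8), Crot 1440474_at (0.17) and Pex11a (-0.44 for 1449442_at and -0.29 for 1419365_at). Member calls for HF+P against HF were 0 under every setting run, and calls over all probe sets 1, or 2 with median centring.

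Without 1 mouse at a time, member calls for HF against LF ranged from 0 to 1 and calls over all probe sets from 131 to 325; for HF+P against HF these were 0, and 0 to 2. Ehhadh stayed at -3.8 to -2.8 for HF minus LF. Signs turned in 5 member probe sets of HF minus LF, whose ranges were -0.36 to 0.33 for Eci2, -0.41 to 0.25 for Crot 1450966_at, -0.69 to 0.067 for Crot 1440474_at, -0.11 to 0.5 for Pex11a 1419365_at and -0.036 to 0.7 for Acaa1a 1456011_x_at. In HF+P minus HF 1 turned, Hsd17b4 1417369_at (-0.23 to 0.48). Calls over all probe sets were 131 to 174 without HF mouse 2, 3 or 4 or LF mouse 1, 3, 5 or 8. For HF+P against HF they were 0 without HF+P mouse 1, 2 or 4 and 2 without HF mouse 2. Mouse numbers mark no shared animal in the labels. Deviations of same-numbered mice correlated at -0.13 to 0.098 for HF and LF and 0.034 to 0.21 for HF+P and HF. HF mice 1, 2, 4 and 5 correlated best with the LF mouse of their own number, while HF mice 3 and 8 did not. HF+P mice 1, 4 and 8 correlated best with the HF mouse of their own number, while HF+P mice 2 and 3 did not. What same-numbered mice may share was not tested. In the replicate block fit of HF+P against HF, which leaves out HF+P mouse 7 and HF mouse 5, member calls were 0 as well.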

Other observations

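Another pair of bright probe sets lists both Acaa1a and Acaa1b and so falls outside the 14. Their standardized differences were -0.59 (-1.7 to 0.498, limma adjusted p = 0.697) for 1416946_a_at and -0.49 (-1.5 to 0.588, adjusted p = 0.768) for 1416947_s_at in HF minus LF, the same sign as the Acaa1b probe set and the opposite of both Acaa1a probe sets. In HF+P minus HF they were 0.21 (-0.85 to 1.25) and 0.11 (-0.94 to 1.16). None passed the test.

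In the lists around the members, the genes nearest to the threshold in HF livers besides Etfdh were Idh1, a cytosolic and peroxisomal isocitrate dehydrogenase, at 2.45 (0.936 to 3.91, adjusted p = 0.0636) and Crat, carnitine acetyltransferase, which shares its chemistry with Crot, at -2.41 (-3.86 to -0.906, adjusted p = 0.0664). These were singled out after their values were seen.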
